A study of Litchi chinensis with 18 samples.

Results

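The mannose/glucose lectin and agglutinin family of litchi was taken as every gene model whose Swiss-Prot best match was a mannose/glucose-specific lectin or an agglutinin, which gave 31 of the 37401 gene models in the deposited table. Of these, 10 matched the mannose/glucose-specific lectin of Parkia platycephala, 19 matched the agglutinin of Castanea crenata (Japanese chestnut) and 2 matched Agglutinin-2 of Cladrastis kentukea. The 31 models came from 28 loci, and members were counted as models. LITCHI028104.m1 and Litchi_chinensis_newGene_2823 (below, newGene_2823) belong to the 10. They had been singled out for their peak in the carpels of one kind of male flower, and the question was whether the other 29 members follow that peak.

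RNA was sequenced from carpels and stamens of 3 types of flower of the litchi cultivar 'Feizixiao' at full bloom. F flowers are functionally female and carry rudimentary stamens. M and m flowers are both functionally male, and they differ in the rudimentary pistil, which is not obvious in M and obvious in m flowers. Each of the 6 organs (F-carpel, M-carpel, m-carpel, F-stamen, M-stamen, m-stamen) had 3 libraries. The libraries were not described as separate trees, so the p-values measure the spread between these samples only.

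Lectins are proteins that bind sugars without altering them. Jacalin-related lectins, the class to which most of these matches belong, carry one or more jacalin-like domains, and the mannose-binding branch of the class recognises mannose- and glucose-containing glycans. Plant lectins of this kind are known as defence proteins against insects and microbes and, where abundant, as storage proteins, and legume lectins such as that of Cladrastis form a separate fold with similar sugar preferences. The Pfam annotation gave a jacalin-like domain to 26 of the 31 members and a legume lectin domain to 2. No sequence of the members was used here.

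Library totals lay between 25689398 and 32302522 counts, and the log2 CPM (counts scaled by library size) of replicates correlated at 0.943 to 0.960 across gene models. LcSTK, an ovule identity gene, averaged 32.9 FPKM (fragments scaled by model length and library size) in F-carpel, while M-carpel had 1.12, m-carpel 7.85 and the stamens at most 0.743. LcSHP, a second ovule gene, did not separate carpels from stamens. Its lowest mean was that of the carpels of M flowers, 7.83 FPKM, against 9.28 to 16.5 in stamens. The carpels of F and m flowers averaged 26.2 and 18.2 FPKM. LcPI, a stamen and petal identity gene, averaged 374 to 643 FPKM in stamens and 76.7 ± 2.0 (SD, n = 3) in M-carpel, but 2.61 in the carpels of F flowers and 4.01 in those of m flowers. LcAP3-1, a second gene of stamen and petal identity, did not share that order, with F-carpel at 79.3 FPKM, M-carpel at 61.4 and m-carpel at 35.9 against 205 to 306 in stamens. The part of stamen or petal tissue in the carpel values was not tested. In whole organs, fewer cells of a type and less RNA per cell cannot be told apart.

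LITCHI028104.m1 was measured at 16524, 15509 and 15497 FPKM in the 3 m-carpel libraries. Its level was 1868, 1652 and 1753 FPKM in M-carpel and 102, 104 and 106 FPKM in F-carpel. In stamens it was 51.3, 53.3 and 55.0 FPKM in F flowers, 37.7, 43.7 and 41.3 in M flowers and 21.9, 18.2 and 20.6 in m flowers. No 2 organs overlapped, and the order of means ran m-carpel, M-carpel, F-carpel, F-stamen, M-stamen, m-stamen. Every carpel was above every stamen, and m flowers held both the highest and the lowest organ. The m-carpel mean was 9.01 times the M-carpel mean, 152 times the F-carpel mean and 782 times the m-stamen mean. These ratios describe the peak for which the gene was chosen and carry no test.

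newGene_2823, whose closest match among all known proteins was a mannose/glucose-specific lectin already described from Litchi chinensis, reached 27735, 26005 and 25935 FPKM in m-carpel. Outside that organ it was highest in F-stamen, at 5171, 4615 and 5203 FPKM, and next in M-carpel, at 2805, 2266 and 2604 FPKM. M-stamen had 1185, 1377 and 1311 FPKM, m-stamen 704, 633 and 728, and F-carpel 375, 420 and 346. The organs again did not overlap, but their order differed from that of LITCHI028104.m1. The m-carpel mean was 5.32 times the F-stamen mean and 69.9 times the F-carpel mean.

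**Figure D1:**
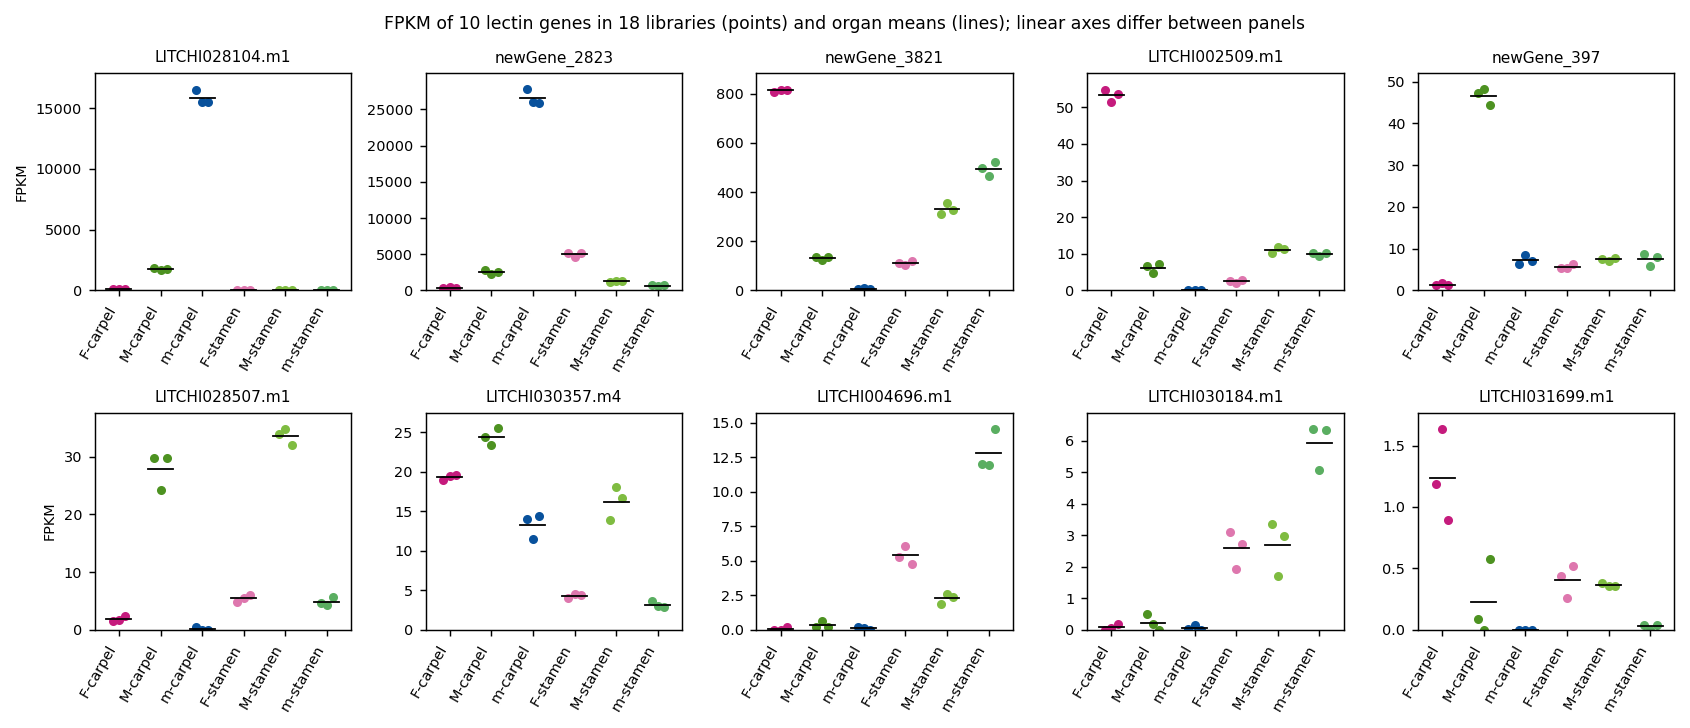
FPKM of the 10 members with the highest levels in each of the 18 libraries (points, 3 per organ) with the organ means (lines), on linear axes that start at 0 and differ between panels. LITCHI028104.m1 and newGene_2823 stand highest in m-carpel, where newGene_3821, LITCHI002509.m1, LITCHI028507.m1, LITCHI030184.m1 and LITCHI031699.m1 have their lowest means.

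The 2 genes together took 5.09% (range 4.98 to 5.29%) of all counts in the m-carpel libraries. newGene_2823 held rank 1 and LITCHI028104.m1 rank 2 among all gene models in each of them, by counts and by FPKM. In M-carpel their joint share was 0.528% and in F-carpel 0.054%. newGene_2823 also held FPKM rank 2 in all 3 F-stamen libraries, where it alone took 0.544% of the counts. Summed, the other 29 members moved the opposite way between these carpels, from 0.101% of the counts in F-carpel to 0.0294% in M-carpel and 0.00419% in m-carpel. Of that sum in F-carpel, newGene_3821 alone had 82747 counts over the 3 libraries, and the next member, LITCHI002509.m1, had 6808. Both genes fell towards M-carpel, but not every member did. The means of newGene_397, LITCHI028507.m1 and LITCHI030357.m4 rose, from 1.43 to 46.6, 1.86 to 27.9 and 19.3 to 24.4 FPKM. For newGene_397 the m-carpel mean, 7.30 FPKM, was also above that of F-carpel. LITCHI028104.m1 and newGene_2823 together had 0.500 to 0.580 counts for each count of the rest of the family in F-carpel, and 1186 to 1265 in m-carpel.

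**Figure D2:**
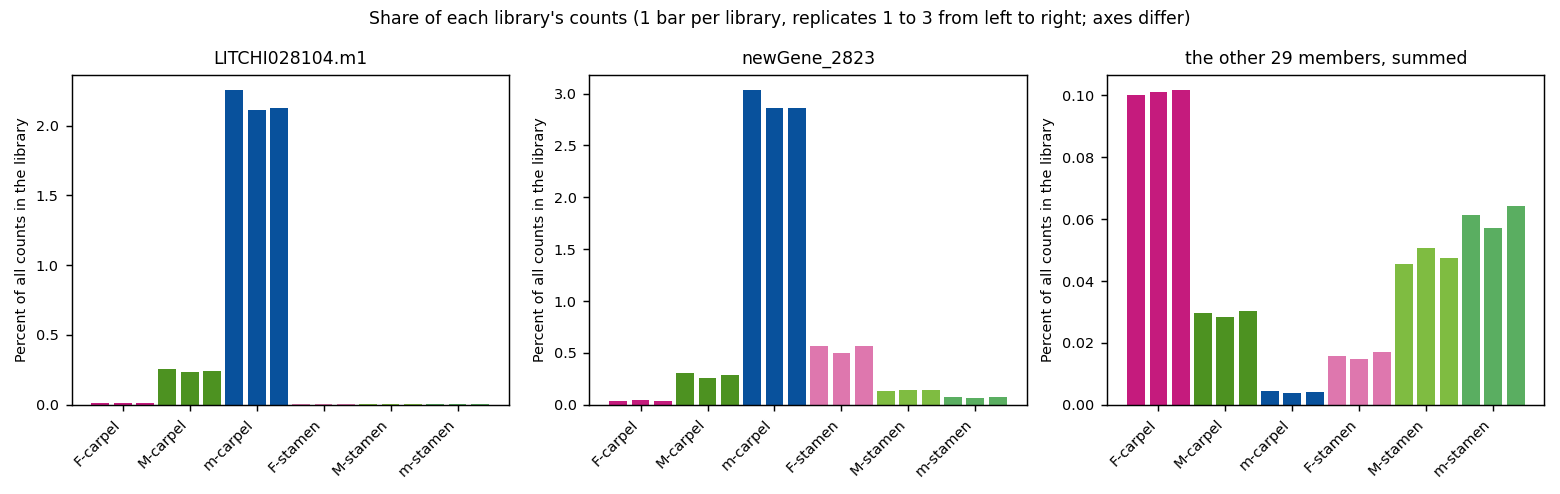
Share of all counts in each library taken by LITCHI028104.m1, by newGene_2823 and by the other 29 members summed, in percent (1 bar per library, axes differ). The first 2 panels peak in m-carpel, at 2.17% and 2.92% on average, and the third is lowest there.

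Between organs other than m-carpel the 2 genes could be tested, and they differed in the stamens. In carpels both were higher in M than in F flowers, LITCHI028104.m1 by a log2 fold change of 4.26 ± 0.07 (SE, edgeR, adjusted p = 2.41e-16) and newGene_2823 by 2.95 ± 0.09 (edgeR, adjusted p = 2.87e-13). At the threshold used here, an adjusted p below 0.01 with a log2 fold change of at least 1, 28.6% of the 27247 gene models tested were called in that comparison. The share was 23.9% for M-carpel minus F-stamen, 42.7% for F-carpel minus m-stamen, 14.9% for F-stamen minus M-stamen and 19% for F-stamen minus m-stamen. Against F-stamen, M-carpel was higher for LITCHI028104.m1 by 5.10 ± 0.07 (edgeR, adjusted p = 1.34e-16), whereas newGene_2823 was lower in M-carpel by 0.92 ± 0.08 on the log2 scale, below the fold needed for a call (edgeR, adjusted p = 1.56e-07). F-carpel exceeded m-stamen for LITCHI028104.m1 (log2 fold change 1.88 ± 0.06) and fell below it for newGene_2823 (-1.34 ± 0.08). The latter was -0.86 with limma on FPKM, under the fold needed for a call.

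Among stamens, newGene_2823 was higher in F flowers than in M flowers by 1.87 ± 0.08 and than in m flowers by 2.53 ± 0.09 (edgeR, adjusted p = 9.12e-11 and 3.22e-12). The same contrasts were smaller for LITCHI028104.m1, 0.27 ± 0.06 (not called) and 1.04 ± 0.06. The latter lay close to the fold threshold. It was 0.97 and not called both in DESeq2 and with the size factors of DESeq2 in edgeR. The call was also lost in 8 of the 18 fits with a library left out. The FPKM of newGene_2823 over that of LITCHI028104.m1 was 3.65 for F-carpel, 1.46 for M-carpel and 1.68 for m-carpel. In stamens it was higher in every flower type, at 93.9 for F-stamen, 31.6 for M-stamen and 34.0 for m-stamen.

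None of the other members with more than 2 counts shared the peak. By the rule of at least 1 FPKM in an organ, 8 of the 29 were described by name, and 0 of these 8 had their highest mean in m-carpel, while 5 had their lowest there. That lowest place rested on few counts for LITCHI030184.m1 (10 in m-carpel, 12 in F-carpel) and LITCHI031699.m1 (0 in m-carpel, 4 in m-stamen). Of the 22 other members with any count, 1 had its highest mean in m-carpel, LITCHI018432.m2, with 2 counts in a single library. Among all gene models tested, 16.9% were highest and 20% lowest in m-carpel. In edgeR, 12 of the 29 passed the filter on low counts, and 0 of them were called higher in m-carpel than in each of the other 5 organs (0.984% of all models tested were). At an unadjusted p under 0.05 the count was also 0, as it was by DESeq2 and limma. The 3 called lower than in each of the other 5 were newGene_3821, LITCHI002509.m1 and LITCHI028507.m1, against 3.81% of all models.

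Counted by organ, m-carpel differed from F-carpel in 5 of the 12 tested members, 1 higher and 4 lower, where 34.3% of all models were called, 16% higher and 18.3% lower. Against M-carpel 0 were higher and 5 lower (12.7% of all models called, 4.13% higher and 8.58% lower). Against m-stamen 1 was higher and 5 lower (36.8%, with 21% lower), against F-stamen 1 and 6 (30.7%, with 20% lower), and against M-stamen 0 and 6 (31.4%, with 18.6% lower). The 0 higher against M-carpel and M-stamen were also 0 at an unadjusted p under 0.05 in edgeR, and in DESeq2 and limma. The median log2 fold change of the 12 was -0.82 against F-carpel, -1.87 against M-carpel and -4.42 against m-stamen, with medians over all models of 0.00, -0.02 and 0.00. The members that passed the filter are those with counts in some organ, so these shares describe them and not the whole family.

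**Figure D3:**
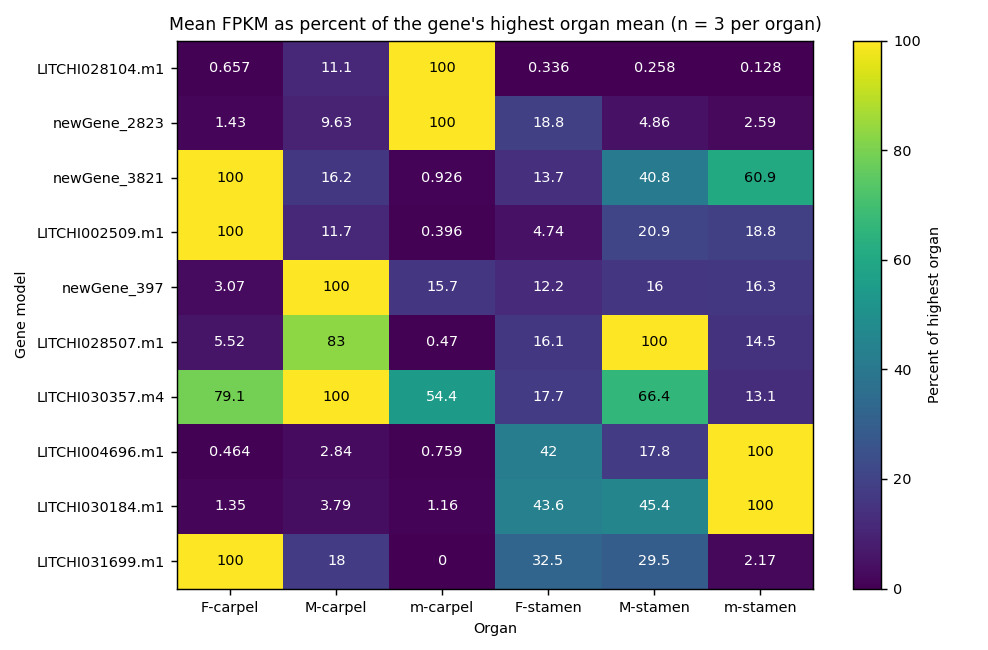
Mean FPKM of each of 10 members in the 6 organs as a percent of the gene's own highest organ mean (n = 3 per organ). LITCHI028104.m1 and newGene_2823 are at 100% in m-carpel, whereas newGene_3821, LITCHI002509.m1, LITCHI028507.m1, LITCHI004696.m1 and LITCHI030184.m1 are at 0.396% to 1.16% there and LITCHI031699.m1 is at 0.

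newGene_3821, the most abundant of the other members, was nearly the reverse of newGene_2823. It was measured at 805, 817 and 816 FPKM in F-carpel, 135, 126 and 135 in M-carpel, and 8.02, 8.13 and 6.44 in m-carpel. In stamens it stood at 111, 103 and 119 FPKM in F flowers, 312, 354 and 328 in M flowers and 497, 467 and 521 in m flowers. By FPKM no 2 organs overlapped, and F-carpel was highest and m-carpel lowest. With the normalization of edgeR, F-carpel and m-stamen were close. Their log2 fold change was 0.20 to 0.29 over the 18 fits with a library left out, below the fold needed for a call. The log2 fold change of m-carpel was -6.52 ± 0.09 from F-carpel, -4.08 ± 0.08 from M-carpel and -6.28 ± 0.08 from m-stamen (edgeR, adjusted p = 4.98e-17, 1.59e-14 and 5.22e-17).

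LITCHI002509.m1, which shared its best protein match with newGene_3821, had the same order at a lower level, with M-stamen and m-stamen exchanged. F-carpel had 54.8, 51.4 and 53.7 FPKM, M-carpel 6.57, 4.89 and 7.23, and m-carpel 0.238, 0.179 and 0.217, from 11, 8 and 9 counts. F-stamen had 2.62, 2.15 and 2.80 FPKM, M-stamen 10.2, 11.9 and 11.3, and m-stamen 10.2, 9.44 and 10.3. M-stamen and m-stamen overlapped and did not differ in the test (log2 fold change -0.09 ± 0.12). The difference of m-carpel from F-carpel was -7.64 ± 0.17 and from F-stamen, the next lowest organ, -3.37 ± 0.16 (edgeR, adjusted p = 9.78e-15 and 5.35e-11).

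Over the 18 libraries the log2 CPM of newGene_2823 correlated at -0.99 with LITCHI002509.m1 and at -0.97 with newGene_3821, and the latter 2 correlated at 0.97 with each other. LITCHI028104.m1 and newGene_2823 correlated at 0.74. These values include the m-carpel libraries, whose levels had chosen LITCHI028104.m1 and newGene_2823. Over the 15 other libraries newGene_2823 correlated at -0.97 with LITCHI002509.m1, at -0.95 with newGene_3821 and at 0.26 with LITCHI028104.m1. The points are 3 libraries of each organ, so these values describe organ patterns. Whether reads were shared between near-identical members was not tested.

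**Figure D4:**
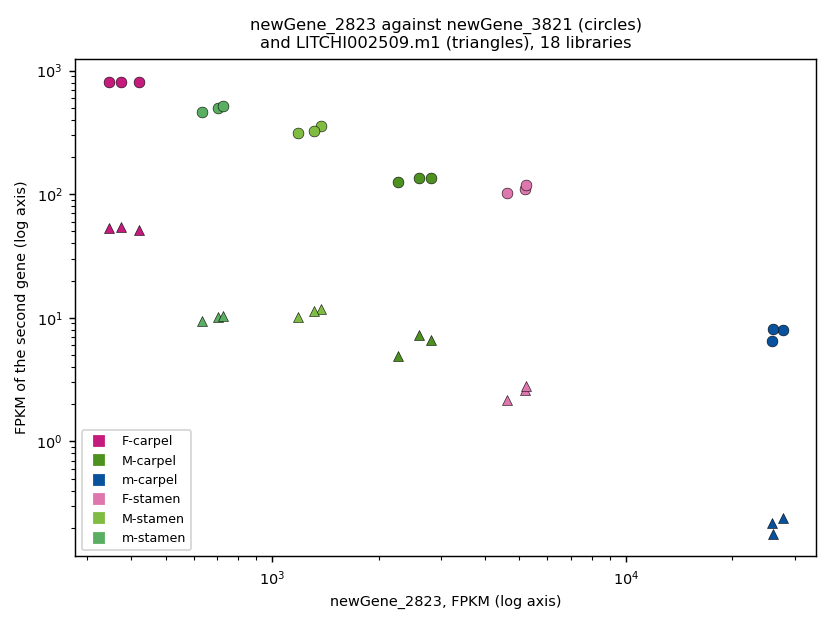
FPKM of newGene_3821 (circles) and LITCHI002509.m1 (triangles) against that of newGene_2823 in the 18 libraries, on log axes, coloured by organ. From F-carpel at the left to m-carpel at the right, both genes fall as newGene_2823 rises, except that M-stamen and m-stamen overlap for LITCHI002509.m1, from means of 813 to 7.53 FPKM for newGene_3821 and from 53.3 to 0.211 FPKM for LITCHI002509.m1.

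Among the remaining named members, newGene_397 and LITCHI028507.m1 were high in M-carpel. For newGene_397, the M-carpel libraries had 47.3, 48.1 and 44.3 FPKM, those of m-carpel 6.42, 8.46 and 7.02 and those of F-carpel 1.30, 1.77 and 1.22. Its stamen libraries lay between 5.34 and 8.83 FPKM and overlapped with m-carpel. It was the 1 member called higher in m-carpel than in F-carpel, by 2.56 ± 0.19, and it was lower in m-carpel than in M-carpel by 2.63 ± 0.18 (edgeR, adjusted p = 8.50e-09 and 1.67e-08). M-carpel was above F-carpel by 5.19 ± 0.21 and above M-stamen by 2.59 ± 0.18 (edgeR, adjusted p = 8.77e-12 and 9.70e-09), comparisons in which 28.6% and 22.9% of all models were called.

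LITCHI028507.m1 was shared by the organs of the M flower. It had 29.8, 24.2 and 29.7 FPKM in M-carpel and 34.0, 34.8 and 32.1 in M-stamen, which did not differ in the test (log2 fold change -0.33 ± 0.46). F-carpel had 1.55, 1.63 and 2.39 FPKM, F-stamen 4.74, 5.45 and 6.09, and m-stamen 4.61, 4.29 and 5.73. The m-carpel libraries had 0.440, 0.034 and 0 FPKM, from 20, 2 and 0 counts. m-carpel was lower than M-carpel by 7.31 ± 0.65 and than F-carpel by 3.22 ± 0.60 (edgeR, adjusted p = 2.80e-07 and 0.000231). One library decided the size, since without m-carpel replicate 1 these differences were -9.97 and -5.89. With only F-carpel and m-carpel in the fit the latter difference was -3.30 and was not called (adjusted p = 0.0332, edgeR).

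LITCHI030357.m4 changed least between carpels. It had 19.0, 19.5 and 19.5 FPKM in F-carpel, 24.4, 23.3 and 25.6 in M-carpel and 14.1, 11.4 and 14.4 in m-carpel. M-stamen had 13.9, 18.1 and 16.7 FPKM, whereas F-stamen had 4.02, 4.56 and 4.40 and m-stamen 3.61, 3.07 and 2.92. It was called higher in m-carpel than in m-stamen, by 1.80 ± 0.12, and than in F-stamen, by 1.72 ± 0.12 (edgeR, adjusted p = 2.20e-09 and 4.54e-09). Its difference of m-carpel from F-carpel was -0.31 ± 0.11 (edgeR, adjusted p = 0.0256).

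**Figure D5:**
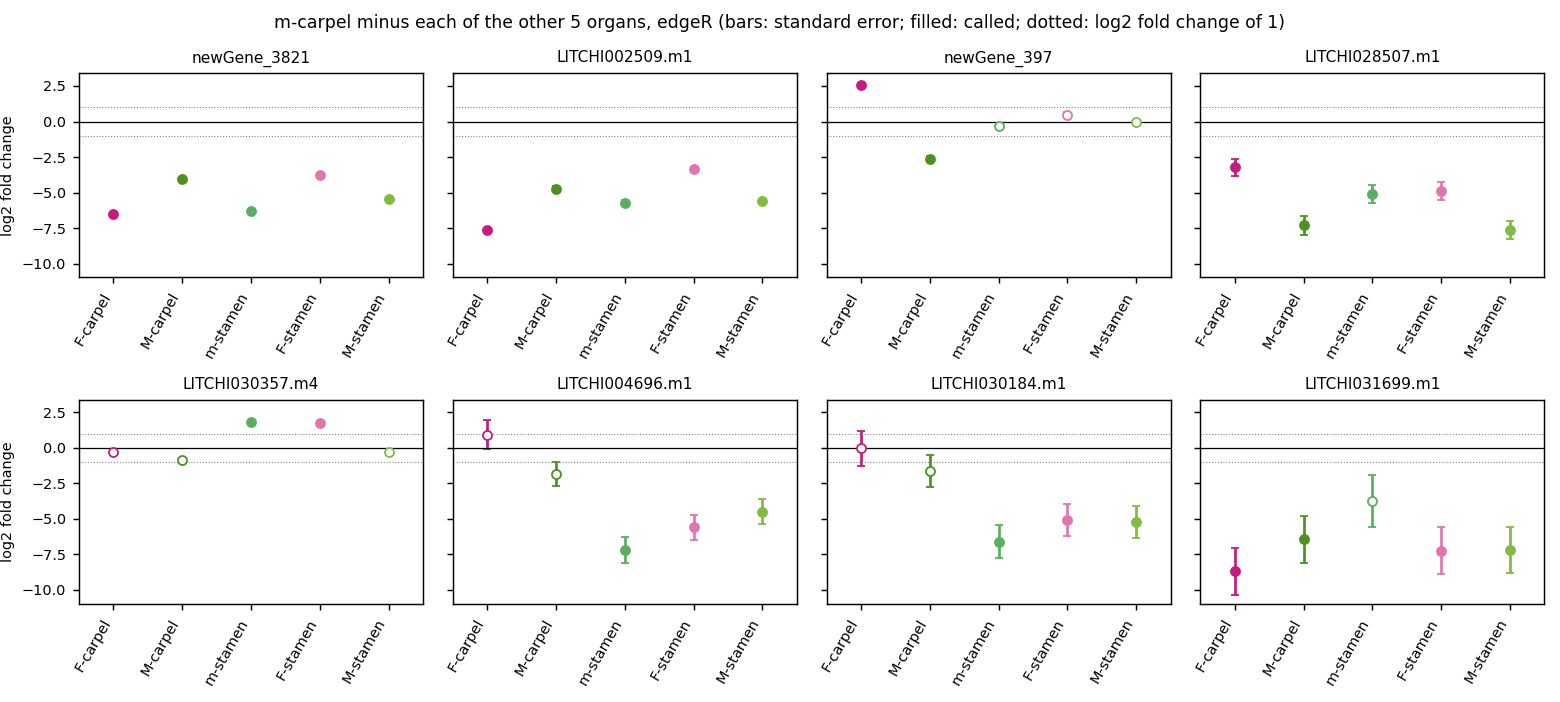
Log2 fold change of m-carpel minus each of the other 5 organs for 8 members (points, with standard error; filled where called in edgeR; dotted lines at a log2 fold change of 1 in either direction). newGene_3821, LITCHI002509.m1 and LITCHI028507.m1 are called lower against all 5 organs, and only newGene_397 (against F-carpel) and LITCHI030357.m4 (against m-stamen and F-stamen) are called higher.

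LITCHI004696.m1 and LITCHI030184.m1 were stamen transcripts. LITCHI004696.m1, which has the same best protein match as newGene_2823, had 12.02, 11.9 and 14.5 FPKM in m-stamen, 5.30, 6.10 and 4.78 in F-stamen and 1.84, 2.63 and 2.39 in M-stamen. Its carpel libraries lay between 0 and 0.661 FPKM, so stamens and carpels did not overlap. LITCHI030184.m1 had 6.37, 5.06 and 6.33 FPKM in m-stamen, 3.09, 1.93 and 2.72 in F-stamen and 3.37, 1.72 and 2.99 in M-stamen, and at most 0.491 FPKM in any carpel library. Stamens exceeded carpels by a log2 fold change of 5.47 ± 0.50 for LITCHI004696.m1 and 5.09 ± 0.63 for LITCHI030184.m1 (edgeR, adjusted p = 9.84e-08 and 3.52e-06). Without F-carpel replicate 3 the former was 6.73. The log2 CPM of the 2 genes correlated at 0.94 over the 18 libraries.

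In m-carpel both were lower than in m-stamen, with log2 fold changes of -7.21 ± 0.91 for LITCHI004696.m1 and -6.61 ± 1.18 for LITCHI030184.m1 (edgeR, adjusted p = 5.19e-06 and 0.000158), and these became -7.87 without m-carpel replicate 1 and -8.20 without m-carpel replicate 2. Their differences between m-carpel and F-carpel rested on few counts and were not called (0.93 ± 1.02 and -0.02 ± 1.23).

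LITCHI031699.m1 had no count in any m-carpel library. It had 1.19, 1.64 and 0.896 FPKM in F-carpel, 0.089, 0 and 0.579 in M-carpel, 0.436, 0.256 and 0.516 in F-stamen and 0.380, 0.360 and 0.359 in M-stamen, and m-stamen was at 0.040, 0 and 0.040. Against a floor of 3 counts over the m-carpel libraries, its mean CPM was at least 59.1-fold higher in F-carpel, 19.8-fold in F-stamen, 18.03-fold in M-stamen and 11.0-fold in M-carpel. All 4 comparisons were called in edgeR (adjusted p = 0.000407, 0.00183, 0.00187 and 0.00714). That with M-carpel was the least stable. It was not called in 11 of the 18 fits with a library left out (highest adjusted p in edgeR 0.0406, without M-carpel replicate 3), with the replicate block (0.0167) or with limma. With limma on log2(FPKM + 1) the calls against F-stamen and M-stamen were lost as well.

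Across organs, 10 of the 12 tested members were called in at least 1 of the 15 pairwise comparisons, and 70% of all models were. Stamens and carpels, each averaged over the 3 flower types, differed in 6 of the 12, 4 higher in stamens and 2 lower (29.6% of all models called, 18.5% higher and 11.1% lower). The 4 were newGene_3821, LITCHI028507.m1, LITCHI004696.m1 and LITCHI030184.m1. The 2 were LITCHI030357.m4 and LITCHI030357.m1, which are models of the same locus. For newGene_3821 the average of 1.64 ± 0.04 hid opposite organs, since F-carpel was above F-stamen by 2.75 ± 0.07 and m-carpel was below m-stamen (32.2% of all models were called between F-carpel and F-stamen). For LITCHI028507.m1 the average was 2.37 ± 0.30, although M-carpel and M-stamen did not differ in the test (-0.33 ± 0.46). It was 3.25 without m-carpel replicate 1.

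The carpel-stamen difference itself changed between m and F flowers in 4 of the 12 members (30% of all models), 3 in the direction of a lower carpel in m flowers and 1, newGene_397, in the other.

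The remaining 21 members were at or near the limit of detection. No count was found for 7 in any library, 10 had between 2 and 61 counts over all 18 libraries, and 4 passed the filter with at most 591 counts in all. LITCHI030357.m1, a second model of the LITCHI030357 locus, had the highest total and averaged 0.945 FPKM in M-carpel and 0.397 in m-carpel. LITCHI007187.m1, with a legume lectin domain, averaged 0.647 ± 0.490 FPKM in M-carpel and had no count in F-carpel. Both LITCHI010294.m1 and LITCHI030190.m1 were highest in m-stamen, at 0.529 ± 0.376 and 0.362 ± 0.276 FPKM, and were called in none of the 15 comparisons.

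Other lectins and defence proteins, listed by their Swiss-Prot names, were counted in the same comparison. Of 4 tested jacalin-related lectins outside the family, 1 was called higher in m-carpel than in F-carpel, the Jacalin-related lectin 19 model LITCHI030002.m1, at 12.9 ± 1.3 against 7.06 ± 1.49 FPKM. Among G-type lectin receptor kinases, membrane proteins with a mannose-binding lectin domain outside the cell, 44 of 135 were higher and 14 lower in m-carpel than in F-carpel. newGene_1561 of this list stood at 47.2 ± 4.2 FPKM in m-carpel and 0.400 ± 0.145 in F-carpel. Of L-type lectin receptor kinases 10 of 37 were higher and 4 lower, and of phloem protein 2 type lectins 6 of 33 and 3. Over all models 16% were higher and 18.3% lower in that comparison. Against M-carpel the G-type kinases went the other way, with 4 higher and 20 lower (4.13% and 8.58% of all models). Among these 135 kinases, 4 were called higher and 3 lower in m-carpel than in each of the other 5 organs, beside 0.984% and 3.81% of all models.

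Chitinases, which cleave the chitin of fungal walls, had 13 of 40 higher and 8 lower in m-carpel than in F-carpel (16% and 18.3% of all models). Against M-carpel 1 was higher and 8 lower (4.13% and 8.58% of all models). Against F-stamen 2 were higher and 17 lower (30.7% of all models called, with 20% lower). Beside the same shares of all models, thaumatin-like and pathogenesis-related proteins had 11 of 37 higher and 12 lower in m-carpel than in F-carpel. Against M-carpel they had 2 higher and 11 lower. The thaumatin-like model LITCHI023086.m1 was at 0.106 ± 0.10 FPKM in m-carpel and 260 ± 11 in F-carpel. Of 8 protease inhibitors, 2 were higher and 1 lower in m-carpel than in F-carpel, where 34.3% of all models were called. Calnexin and calreticulin, lectin chaperones of the endoplasmic reticulum that fold newly made glycoproteins, had 1 of 5 called in that comparison, a calreticulin model, LITCHI004134.m1, which was lower at 72.1 ± 0.45 against 255 ± 6.3 FPKM.

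The 5 gene models outside the family whose log2 CPM were most correlated with LITCHI028104.m1 over the 18 libraries were annotated as Organic cation/carnitine transporter 7 (LITCHI016525.m1, r = 0.99), Heavy metal-associated isoprenylated plant protein 5 (LITCHI018640.m1, 0.99), DRM3 (LITCHI014289.m1, 0.99), the MACPF protein CAD1 (LITCHI028938.m1, 0.99) and U-box protein 33 (LITCHI025720.m1, 0.98). These values include the m-carpel libraries, whose levels had chosen LITCHI028104.m1. LITCHI016525.m1 ranged from 4.76 FPKM in m-stamen to 34.3 in m-carpel and LITCHI028104.m1 from 20.3 to 15843 FPKM. From M-carpel to m-carpel the means of the 5, in the order given, went from 15.3 to 34.3, 345 to 514, 18.7 to 22.6, 6.54 to 9.01 and 29.9 to 34.2 FPKM. That of LITCHI028104.m1 went from 1758 to 15843 FPKM. newGene_2823 ranked 1640 of the 14270 models compared.

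CRABS CLAW (LITCHI005346.m1), a gene of carpel and nectary development, was at 2.16, 1.30 and 0.658 FPKM in m-carpel, and its organ means elsewhere were 14.0 to 56.2 FPKM. The summed level of 9 pollen and tapetum genes was 88.2 to 101 FPKM in m-carpel, 335 to 358 in F-carpel and 230 to 247 in M-carpel, against 1368 to 2888 in stamens, with 1 of the 9 at 0 in each carpel. The summed level of 17 chlorophyll a-b binding proteins was 263 to 299 FPKM in m-carpel, 581 to 647 in F-carpel and 69.2 to 74.5 in M-carpel, against 129 to 155 in stamens. The part of tissue makeup in the lectin values was not tested.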

How the data were processed

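RNA-seq libraries of 6 floral organs, 3 per organ, were grouped by the labels. The authors trimmed the reads, removed ribosomal reads and counted uniquely mapped fragments. HISAT2 2.0.4 and StringTie are named in the submitters' processing notes. Neither the genome build nor the counting program is given in these sources. The table deposited by the authors holds raw counts and FPKM per gene model, with protein annotations. For the expression values the paper names Cufflinks, whereas the processing notes name StringTie. Fold changes and FDR values of the authors' own 9 comparisons are also in the deposited table and were not used.

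Counts were tested with edgeR 4.0.16 (R 4.3.3) by the quasi-likelihood F-test, with all 18 libraries in 1 model, TMM normalization and filterByExpr, which kept 27247 of 37401 models. P-values were adjusted over all of them by Benjamini-Hochberg. A call required an adjusted p below 0.01 and a log2 fold change of 1 or more in either direction, the thresholds of the study. Correlations used log2 CPM with a prior count of 2, over models with a mean of at least 3 on that scale. Floors cover counting error only. Members named were LITCHI028104.m1, newGene_2823 and every other member with a mean of at least 1 FPKM in an organ. Of each related list, at most 2 called members were named. The scripts were tested on simulated data. The members and lists were chosen with earlier results of these data known, and contrasts of the carpel-stamen difference between flower types were added after the data were seen. Alternatives were DESeq2 1.42.0, limma 3.58.1 on log2(FPKM + 1) and log2(FPKM + 0.1), DESeq2 size factors, other filters and thresholds, a replicate block, fewer organs in the fit, and each library left out. Chosen after seeing the data were the table without the 2 abundant genes and the models of each locus summed.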

Additional observations from a re-analysis of the deposited data

Results flagged for a closer look

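The difference between carpel and stamen was compared between m flowers and F flowers by an interaction term in edgeR, which was added after the data were seen, and it was called for 4 of the 12 tested members other than LITCHI028104.m1 and newGene_2823 (30% of all models were called). It was -9.97 ± 0.22 (SE, log2 scale, adjusted p = 8.71e-15) for LITCHI002509.m1 and -9.03 ± 0.11 (adjusted p = 3.63e-17) for newGene_3821. In both of these genes the carpel was above the stamen in F flowers and far below it in m flowers. It was -3.43 ± 0.76 (adjusted p = 0.00135) for LITCHI028507.m1, which was -6.09 without m-carpel replicate 1. For newGene_397 it was 1.79 ± 0.25 (adjusted p = 1.90e-05), with the carpel below the stamen in F flowers and close to it in m flowers.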

How the results depend on the processing

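The counts of members called kept within 1.5 times of the reported ones under every alternative except a filter of a mean of at least 5 CPM, which left 5 of the other members in the test. There the counts were 4 for m-carpel minus F-stamen (reported 7), 3 for m-carpel minus M-stamen (6), 3 for stamens minus carpels (6) and 5 for members called in at least 1 of the 15 comparisons (10). With each library left out in turn, they ranged from 5 to 6 for m-carpel minus F-carpel, 4 to 5 against M-carpel, 5 to 6 for stamens minus carpels and 9 to 10 for the 15 comparisons, and were the same for the rest. Leaving the 2 abundant lectins out of the table changed no call or direction among 75 log2 fold changes and the largest move was 0.10.

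Directions turned only for values that were not called. With limma on log2(FPKM + 1), stamens minus carpels was -0.0036 for LITCHI002509.m1 and -0.15 for LITCHI031699.m1, and -0.031 for the latter with log2(FPKM + 0.1). With the models of each locus summed, m-carpel minus F-carpel was 0.0076 for LITCHI030184.m1. With 1 library left out, that value ranged from -1.61 to 1.76, the m flower minus F flower difference of carpel and stamen from -3.16 to 0.11 for LITCHI030184.m1 and from -1.38 to 3.05 for LITCHI004696.m1, and m-carpel minus M-stamen from -0.15 to 0.057 for newGene_397.

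The call of LITCHI031699.m1 against M-carpel was lost with both limma fits (-0.26 and -1.23), and in 11 of the 18 fits with a library left out. With limma on log2(FPKM + 1) its calls against F-stamen (-0.48) and M-stamen (-0.45) were lost too. The call of newGene_2823 for F-carpel minus m-stamen was lost with both limma fits (-0.86). That of LITCHI028104.m1 for F-stamen minus m-stamen was lost in DESeq2, with its size factors and in 8 of the 18 fits with a library left out. That of LITCHI004696.m1 for M-stamen minus m-stamen was also lost in 8 of these 18 fits. Calls were gained for the same gene. F-stamen minus m-stamen was called in DESeq2 (-1.67), with limma on log2(FPKM + 1) (-1.11) and with the models of each locus summed (-1.61). In DESeq2 m-carpel minus M-carpel was called as well (-1.87). With limma on log2(FPKM + 1) so was the m flower minus F flower difference of carpel and stamen (-1.06). The cause of these changes was not tested. Samples with the same replicate number did not deviate together (correlations of -0.039 to 0.047), so the numbers were not taken as pairs. With the replicate block, the counts of members called stayed within 1.5 times of the reported ones, and of 85 member values 2 lost their call, m-carpel minus M-carpel for LITCHI031699.m1 (-6.06) and M-stamen minus m-stamen for LITCHI004696.m1 (-2.75). Members under 1 FPKM in every organ rest on few counts, and of the 21 of them 4 could be tested.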
